A study of Mus musculus with 48 samples.

Results

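The genes described here are 7 that carry or govern heat production in brown and beige fat: Ucp1, Cidea, Elovl3, Dio2, Kcnk3, Ppargc1a and Prdm16. They were taken by gene symbol from a table of 55487 genes measured in the mammary gland of aging mice, where each symbol has 1 entry. They were examined for how their transcripts differed between libraries, and for whether they moved with age, with induction of an Esr1 or CYP19A1 transgene, or between the 2 mouse models. Ucp1, Cidea and Elovl3 were the members whose levels differed most from library to library, and after long induction Ucp1 and Kcnk3 were lower in glands of the Esr1 model than in glands of the CYP19A1 model. The Ucp1 difference did not pass the test under every alternative setting. No member passed between groups of 1 model with all libraries kept and equally weighted.

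Brown and beige adipocytes burn fat to make heat. Noradrenaline from sympathetic nerves acts on beta-adrenergic receptors, chiefly Adrb3 in rodent fat, and raises cyclic AMP. Cyclic AMP signalling both releases fatty acids from lipid droplets and switches on Ucp1, whose protein lets protons back across the inner mitochondrial membrane so that respiration yields heat in place of ATP. The mouse mammary gland lies within a fat pad, and beige adipocytes can arise among the white adipocytes of such pads.

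Among the members, Ucp1 is the proton leak itself. Cidea encodes a lipid droplet protein that is abundant in brown fat and is also made by secretory mammary epithelium in lactation. Elovl3 lengthens very long chain fatty acids and is induced by cold in brown fat. Dio2 converts thyroxine to the active thyroid hormone inside the cell. Kcnk3 encodes the potassium channel TASK1. Ppargc1a encodes the coactivator PGC1-alpha, which drives mitochondrial biogenesis in brown fat and also in skeletal muscle. Prdm16 encodes a zinc finger regulator that directs precursors toward the brown and beige fate.

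Both Ucp1 and Dio2 are textbook targets of cyclic AMP signalling, and the bases just before their start sites are shown for the response element letters they hold. The sequences are RefSeq windows of build GRCm38.p6, printed 5′ to 3′ on the strand of the gene, each ending at the base before the start site. Windows for 4 of the 7 members were at hand. Dio2 was added after its window was seen, as the member with the next highest correlation with Ucp1 for which a window could be shown. The Ucp1 window is chr8:83290098-83290347 on the plus strand and the Dio2 window is chr12:90739039-90739288 on the minus strand, where the RefSeq start lies upstream of the GENCODE M21 gene.
Ucp1: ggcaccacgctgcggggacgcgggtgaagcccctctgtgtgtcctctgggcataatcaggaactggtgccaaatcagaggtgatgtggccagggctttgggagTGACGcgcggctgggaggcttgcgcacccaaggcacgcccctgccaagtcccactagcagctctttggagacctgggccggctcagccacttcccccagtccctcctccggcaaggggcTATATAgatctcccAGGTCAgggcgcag
Dio2: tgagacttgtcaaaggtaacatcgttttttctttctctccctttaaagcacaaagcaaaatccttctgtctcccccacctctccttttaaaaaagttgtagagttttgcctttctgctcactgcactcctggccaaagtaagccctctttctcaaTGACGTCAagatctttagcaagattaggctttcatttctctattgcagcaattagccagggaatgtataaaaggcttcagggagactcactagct
Capitals mark letter matches found on either strand. In the Ucp1 window TGACG, the half-site of the cyclic AMP response element, begins 147 bases before the start, TATATA begins 28 bases before it, and AGGTCA, the half-site of many nuclear receptors, begins 14 bases before it. In the Dio2 window the whole palindromic cyclic AMP response element, TGACGTCA, begins 95 bases before the start and contains the half-site on both strands. Of 32851 RefSeq windows of that length, 17.8% held TGACG or its reverse complement CGTCA, 1.55% held the palindrome, 14.0% held AGGTCA or TGACCT, and 5.25% held TATATA. These matches describe letters only. No factor's binding was measured here.

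All groups carried MMTV-rtTA, in which a mouse mammary tumour virus promoter, active chiefly in mammary epithelium, drives a tetracycline-dependent activator. The responder behind the tet-op was Esr1 (estrogen receptor alpha) in the genotype MMTV-rtTA/tet-op-Esr1 and CYP19A1 (aromatase, which makes estrogens) in MMTV-rtTA/tet-op-CYP19A1. Each genotype gave 8 groups of 3 libraries, 48 in all: uninduced at 12, 18 and 24 months, induced for 1 week at 12 and at 18 months, induced for 6 or for 12 months at 24 months, and induced for 18 months at 30 months. The titles of the libraries induced for 1 week carry the letters Doxy as the inducer, and no label describes its dose or route. Uninduced glands of 30 months, and glands given inducer without a responder, were not analysed here, so inducer and transgene cannot be told apart. The titles name biological replicates without saying that each was a separate mouse, so every p-value here reflects the scatter among libraries, part of which may be technical. The titles are built in one way at 12 and 18 months and in another at 24 and 30 months, and a batch with that boundary cannot be told apart from age.

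The values are TPM, each transcript's share of a library after scaling for its length, and can be compared between genes. TPM keep no depth, so the number of reads behind each value is unknown. In 9 libraries over 10% of the TPM lay on 3 entries that collect ribosomal RNA reads (range over all libraries 0.0159% to 67.2%), which lowers every other value there; all 3 glands of the CYP19A1 model induced for 1 week at 12 months were among them. The Esr1 transcript ranged from 8.88 to 16.3 TPM in 9 uninduced and from 6.39 to 25.9 TPM in 15 induced libraries of the Esr1 model, and these ranges overlap. White adipocyte, skeletal muscle and luminal epithelial genes were present in every library. Summed over 12 white adipocyte genes the level ran from 4045 to 15167 TPM, over 16 skeletal muscle genes from 239 to 53768 TPM, and over 8 luminal genes from 77.4 to 816 TPM. In whole tissue, fewer cells of a type and less RNA per cell cannot be told apart.

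All 7 members reached 1 TPM in at least 3 libraries and were tested. By GENCODE M21 on mm10, Ucp1 (ENSMUSG00000031710.4) lies on chromosome 8 at 83290352 to 83298452 on the plus strand. Cidea (ENSMUSG00000024526.9) lies on chromosome 18 at 67343604 to 67367785 and Elovl3 (ENSMUSG00000038754.5) on chromosome 19 at 46131897 to 46135694, both on the plus strand. Kcnk3 (ENSMUSG00000049265.7, plus strand, 30588170 to 30625271) and Ppargc1a (ENSMUSG00000029167.13, minus strand, 51454250 to 51567726) are both on chromosome 5. Dio2 (ENSMUSG00000007682.6) is on chromosome 12 at 90724552 to 90738438 and Prdm16 (ENSMUSG00000039410.16) on chromosome 4 at 154316125 to 154636873, both on the minus strand.

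Ucp1 ran from 0.02 to 263 TPM with a median of 12.0 TPM over the 48 libraries. It was under 1 TPM in 9 libraries, 7 of the Esr1 model and 2 of the CYP19A1 model, spread over 6 groups. Within a group of 3 libraries the highest Ucp1 value was a median of 12.7 times the lowest. The widest group was Esr1 glands induced for 1 week at 12 months, with 98.1, 0.02 and 6.87 TPM. The narrowest high group was CYP19A1 glands induced for 12 months, with 44.4, 40.7 and 41.5 TPM. Identically labelled glands thus ranged from near absence of Ucp1 to a level among the highest in the series.

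The highest Ucp1 mean was in uninduced Esr1 glands of 12 months (165 ± 128 TPM, SD, n = 3), whose libraries held 210, 20.7 and 263 TPM. Next came CYP19A1 glands induced for 18 months (98.5 ± 88.1 TPM), Esr1 glands induced for 12 months (57.6 ± 98.4 TPM), CYP19A1 glands induced for 6 months (50.2 ± 41.4 TPM) and Esr1 glands induced for 1 week at 18 months (49.2 ± 41.7 TPM). The CYP19A1 glands induced for 12 months (42.2 ± 1.97 TPM) were followed by Esr1 glands induced for 1 week at 12 months (35.0 ± 54.8 TPM), uninduced CYP19A1 glands of 12 months (33.5 ± 20.8 TPM) and uninduced Esr1 glands of 24 months (28.0 ± 20.7 TPM). Below these lay CYP19A1 glands induced for 1 week at 18 months (21.9 ± 22.7 TPM), uninduced Esr1 glands of 18 months (11.8 ± 20.1 TPM), Esr1 glands induced for 18 months (8.01 ± 4.42 TPM) and uninduced CYP19A1 glands of 18 months (7.13 ± 7.68 TPM). Last were uninduced CYP19A1 glands of 24 months (5.36 ± 1.92 TPM), CYP19A1 glands induced for 1 week at 12 months (4.27 ± 5.02 TPM) and Esr1 glands induced for 6 months (0.233 ± 0.0862 TPM). In all 15 pairs of neighbours in this order the libraries overlapped, so no step of the order was larger than the spread within groups.

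**Figure D1:**
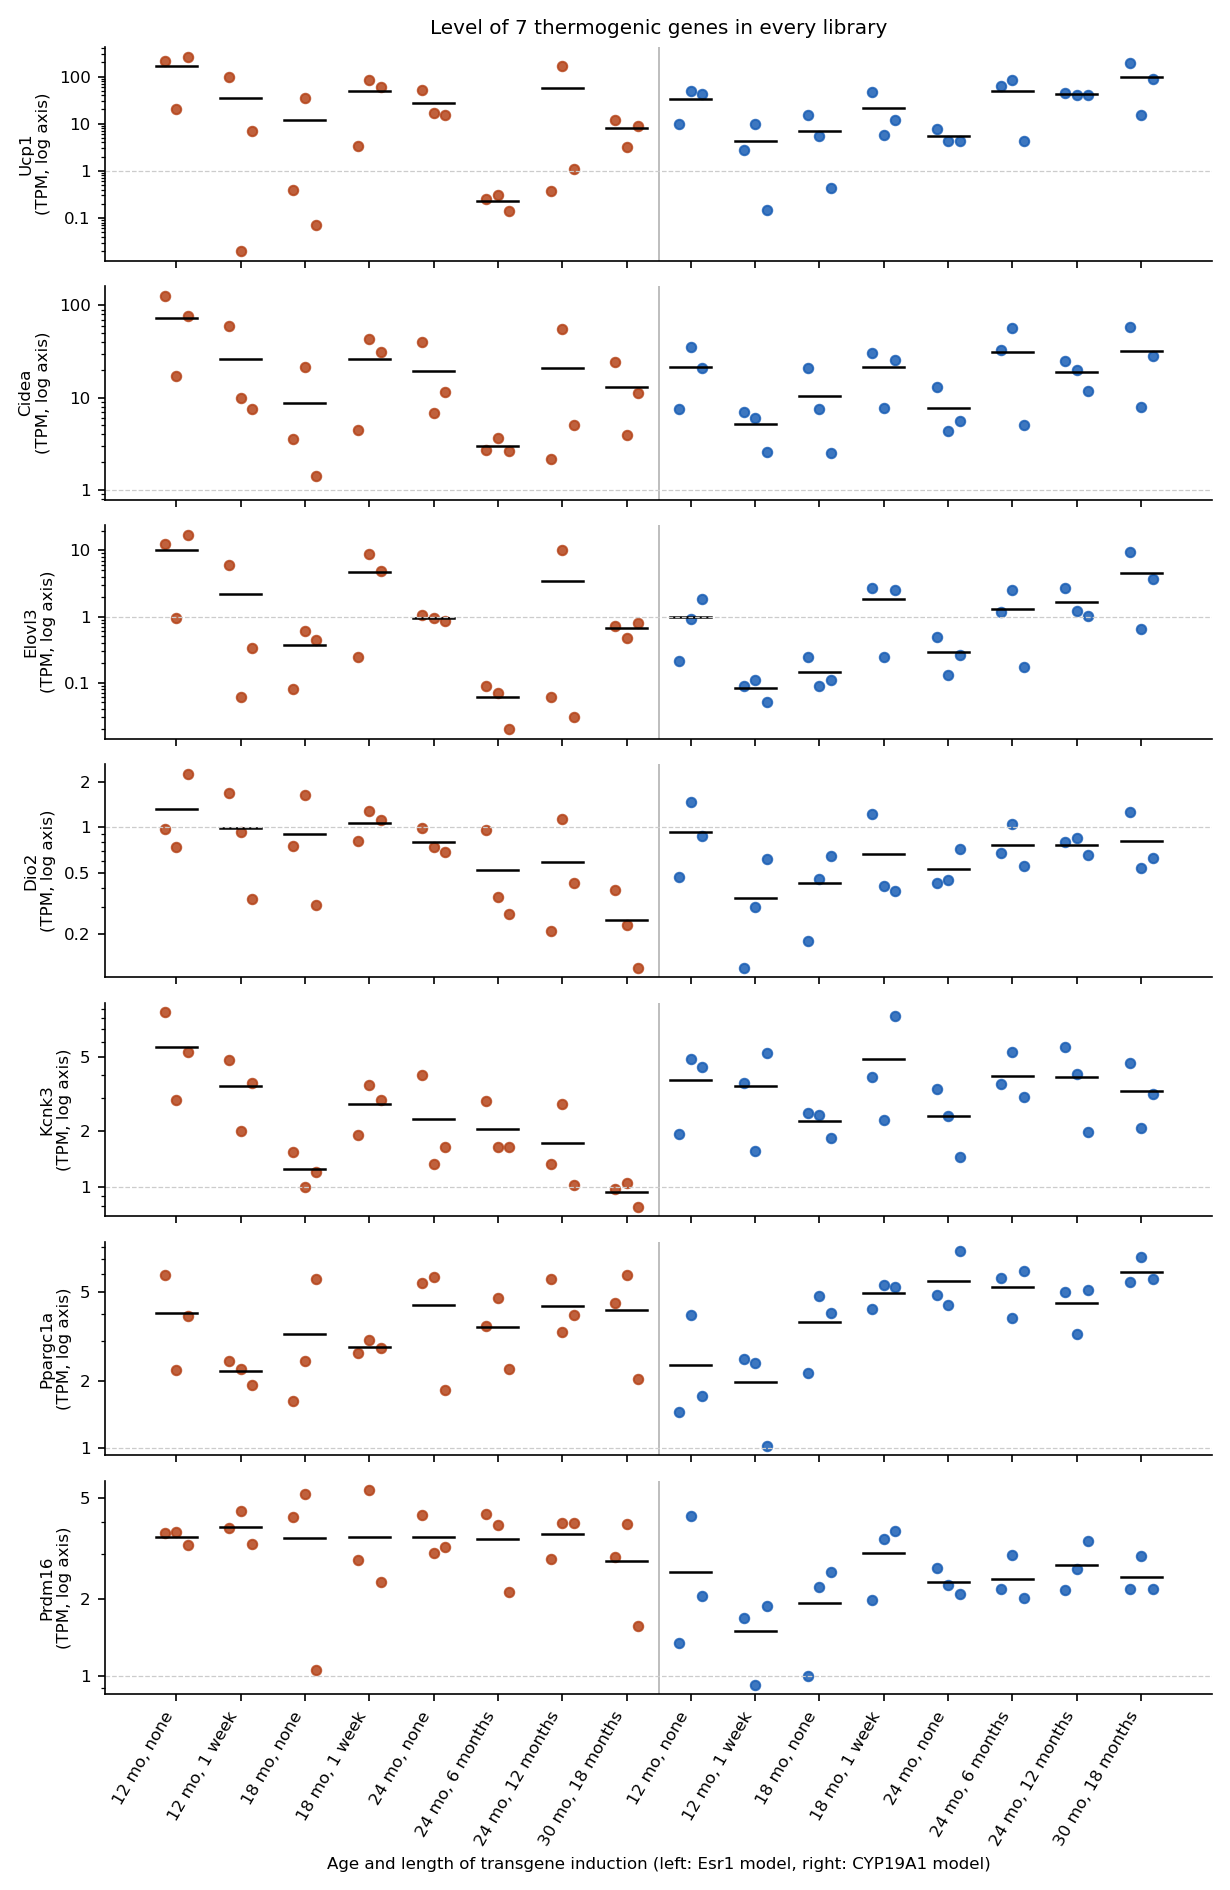
Level of each gene (TPM, log axis) in each of the 48 libraries by age and induction, Esr1 model in red on the left and CYP19A1 model in blue on the right; points are libraries, bars are means of 3, and the dashed line is 1 TPM. Ucp1, Cidea and Elovl3 spread widely within most groups, and all 3 Esr1 libraries induced for 6 months lie under 1 TPM for Ucp1.

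Cidea ran from 1.40 to 128 TPM with a median of 11.3 TPM, and no library was under 1 TPM. Its highest mean was in uninduced Esr1 glands of 12 months (73.7 ± 55.2 TPM, libraries 128, 17.3 and 76.3 TPM). Its lowest was in Esr1 glands induced for 6 months (2.99 ± 0.563 TPM, libraries 2.68, 3.64 and 2.65 TPM), and all 15 neighbouring groups between them overlapped. Cidea stayed measurable where Ucp1 nearly vanished: in the 9 libraries under 1 TPM of Ucp1 it ranged from 1.40 to 9.96 TPM. In the 17 libraries over 40 TPM of Ucp1 it ranged from 11.9 to 128 TPM, above every one of those 9.

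Elovl3 ran from 0.02 to 17.4 TPM with a median of 0.625 TPM, and 31 libraries were under 1 TPM. Its highest mean was again in uninduced Esr1 glands of 12 months (10.3 ± 8.43 TPM, libraries 12.49, 0.95 and 17.4 TPM) and its lowest in Esr1 glands induced for 6 months (0.06 ± 0.0361 TPM). Dio2 was scarce, from 0.12 to 2.26 TPM with a median of 0.67 TPM, and 38 libraries were under 1 TPM. The Dio2 mean was highest in uninduced Esr1 glands of 12 months (1.32 ± 0.819 TPM) and lowest in Esr1 glands induced for 18 months (0.247 ± 0.136 TPM). The highest libraries for Ucp1 were also among the highest for Elovl3.

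Kcnk3 ran from 0.79 to 8.60 TPM with a median of 2.65 TPM. It was highest in uninduced Esr1 glands of 12 months (5.60 ± 2.85 TPM) and lowest in Esr1 glands induced for 18 months (0.943 ± 0.139 TPM), where the libraries held 0.98, 1.06 and 0.79 TPM. The regulators had the narrowest fold ranges over the libraries, 7.46 for Ppargc1a and 5.74 for Prdm16. Ppargc1a ran from 1.02 to 7.61 TPM (median 3.93 TPM), with group means from 1.97 ± 0.827 TPM in CYP19A1 glands induced for 1 week at 12 months to 6.15 ± 0.904 TPM in CYP19A1 glands induced for 18 months. Prdm16 ran from 0.93 to 5.34 TPM (median 2.90 TPM), with group means from 1.503 ± 0.506 TPM in those same 1-week glands to 3.84 ± 0.586 TPM in Esr1 glands induced for 1 week at 12 months. Among the 15 neighbouring pairs of groups of each of these 3 genes and of Dio2, none was free of overlap, and for Elovl3 1 was.

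The spread within groups set Ucp1 apart from most of the transcriptome. Its residual SD on the log2(TPM + 1) scale was 1.98, the 40th largest of 20209 tested genes and larger than that of 99.8% of them. Cidea had a residual SD of 1.32 (larger than 99.2%) and Elovl3 0.99 (larger than 97.6%). Kcnk3 (0.47), Ppargc1a (0.44) and Prdm16 (0.39) were larger than those of 77.2%, 70% and 54% of genes, whose median was 0.38, and Dio2 (0.32) was larger than 28.5%. The pseudocount of 1 compresses differences of genes under 1 TPM, which among the members touches Dio2 and Elovl3 most. It also compresses those of scarce genes among the 20209, and the ranks were not matched on level.

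The members with the widest spread were high and low together from library to library. Over the 48 libraries, Ucp1 and Cidea had a Pearson r of 0.929 and a Spearman rho of 0.929 (permutation test, two-sided, adjusted p = 4.45e-05 for r over 49 relations, from the smallest p that 100000 permutations can give). Without the 2 libraries farthest from the median of Ucp1, r was 0.920. Within the 24 libraries of 12 and 18 months r was 0.932, within the 24 of 24 and 30 months 0.933, and over deviations from group means 0.915. Elovl3 followed Ucp1 with r = 0.848 and rho = 0.923 (permutation adjusted p = 4.45e-05), with 0.839 and 0.880 within the younger and older libraries and 0.835 over deviations from group means. Libraries share a group, and the deviations show that the relation held among libraries of the same label.

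Dio2 and Kcnk3 followed Ucp1 less closely. Dio2 had r = 0.624 and rho = 0.627 with Ucp1 (permutation adjusted p = 4.45e-05; 0.623 and 0.682 within the younger and older libraries; 0.578 without the 2 farthest libraries). Kcnk3 had r = 0.542 and rho = 0.555 with Ucp1 (permutation adjusted p = 0.000327; 0.525 and 0.601 within the younger and older libraries; 0.471 without the 2 farthest). Ppargc1a had r = 0.151 and rho = 0.128 with Ucp1 (permutation adjusted p = 0.486) and Prdm16 r = 0.126 and rho = 0.114 (permutation adjusted p = 0.547). These latter values did not differ from 0 by the permutation test. So Cidea, Elovl3, Dio2 and Kcnk3 each varied with Ucp1, and the regulators Ppargc1a and Prdm16 showed no detectable relation with it. Kcnk3 and Dio2 were the least related pair among these 5 genes, with r = 0.441 (permutation adjusted p = 0.0047). Their r was 0.226 and 0.728 within the younger and older libraries.

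**Figure D2:**
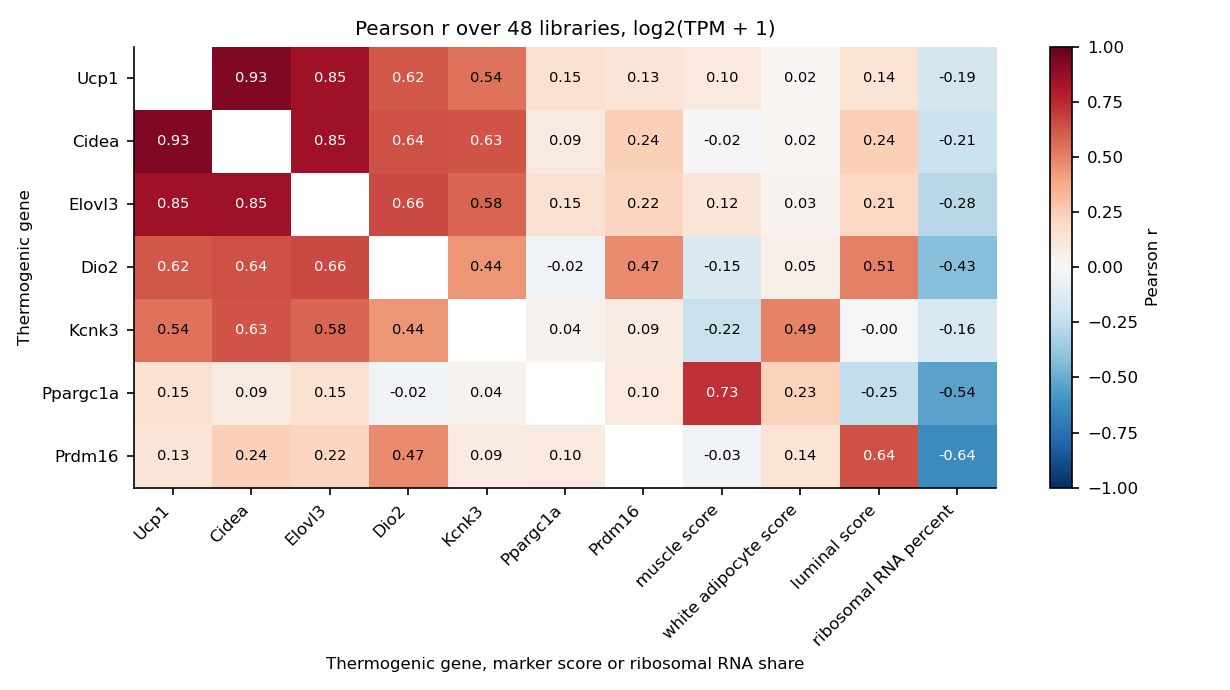
Pearson r over 48 libraries of log2(TPM + 1) between the 7 genes, and with the mean score of 16 muscle, 12 white adipocyte and 8 luminal genes and with the percent of TPM on ribosomal RNA entries; color runs from -1 (blue) to 1 (red). Ucp1, Cidea, Elovl3, Dio2 and Kcnk3 are positively related, while Ppargc1a goes with the muscle score (0.73) and Prdm16 with the luminal score (0.64).

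Ppargc1a followed the muscle genes. Its r with the mean log2(TPM + 1) of 16 skeletal muscle genes was 0.734 and its rho 0.840 (permutation adjusted p = 4.45e-05), with 0.707 and 0.738 within the younger and older libraries, 0.691 without the 2 farthest libraries and 0.590 over deviations from group means. Skeletal muscle lies directly beneath the mammary fat pads and expresses Ppargc1a. Ucp1 had r = 0.0982 with the same muscle score (permutation adjusted p = 0.653), 0.0195 with the score of 12 white adipocyte genes (0.921) and 0.136 with the score of 8 luminal genes (0.512). The level of Ucp1 thus had no detectable relation with any of these 3 tissue scores. Ppargc1a also had r = -0.54 with the ribosomal RNA percent (rho = -0.16, permutation adjusted p = 0.000377 for r). With the luminal score Ppargc1a had r = -0.246 (permutation adjusted p = 0.229) and rho = -0.353 (permutation adjusted p = 0.0435). After TPM were rescaled to median-of-ratios totals, its r was 0.787 with the muscle score and -0.602 with the luminal score. The part of muscle RNA and of ribosomal RNA in the Ppargc1a level was not tested.

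Prdm16 followed the luminal score, with r = 0.639 and rho = 0.634 (permutation adjusted p = 4.45e-05; 0.735 and 0.535 within the younger and older libraries; 0.637 without the 2 farthest libraries), and it followed the ribosomal RNA percent inversely, with r = -0.64 and rho = -0.35 (permutation adjusted p = 4.45e-05 for r). After TPM were rescaled to median-of-ratios totals, the r of Prdm16 with the luminal score fell to 0.258. Dio2 had r = 0.505 with the luminal score (permutation adjusted p = 0.000805), which was 0.249 after rescaling, and r = 0.471 with Prdm16 (permutation adjusted p = 0.00214), which was 0.279 after rescaling. Its r with Ucp1 was 0.643 after rescaling, and its r with the ribosomal RNA percent was -0.43 (rho = -0.33, permutation adjusted p = 0.00648 for r). Kcnk3 had r = 0.493 with the white adipocyte score (permutation adjusted p = 0.00101), with 0.549 and 0.565 within the younger and older libraries.

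**Figure D3:**
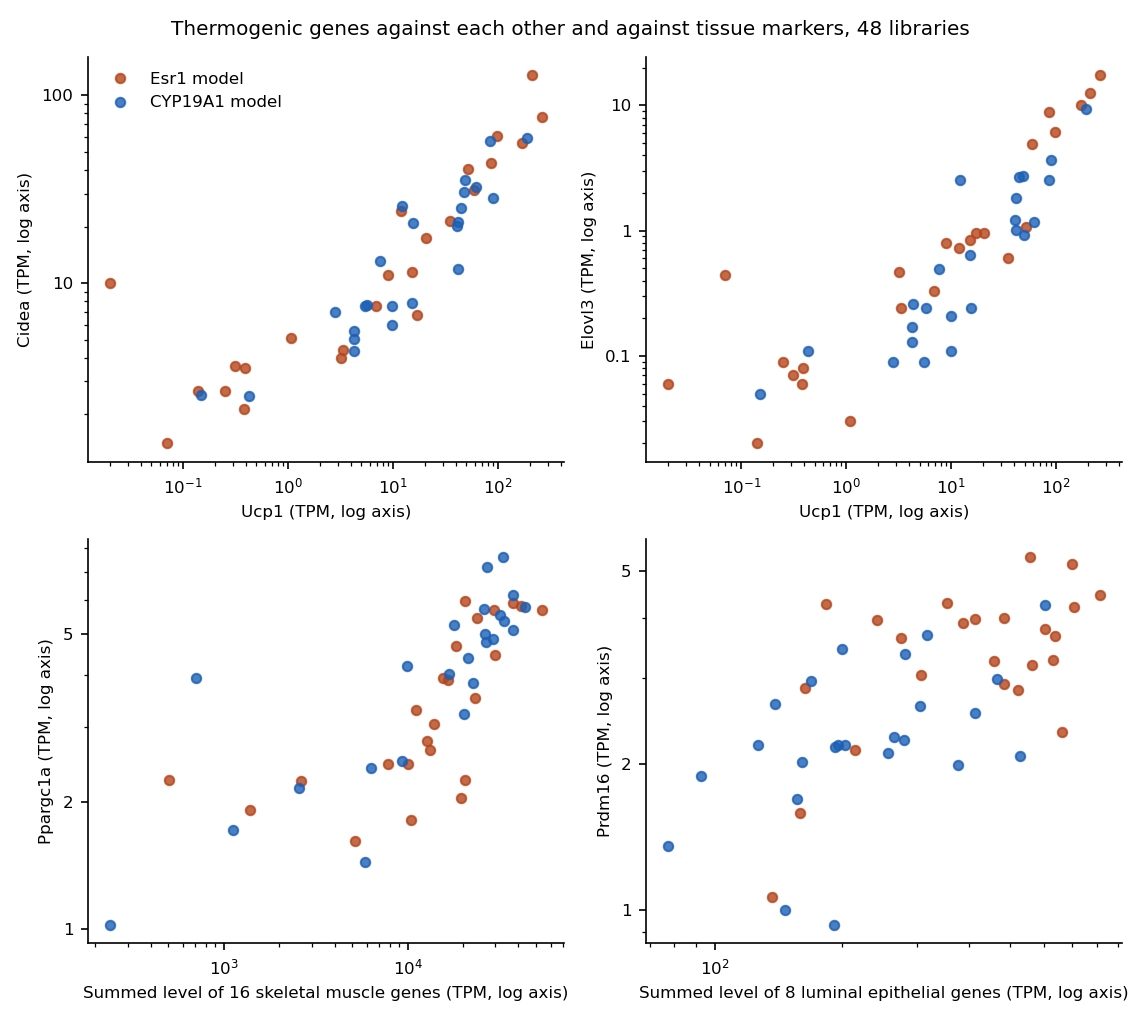
Each point is 1 of 48 libraries (red Esr1 model, blue CYP19A1 model), all axes in TPM on log scales: Cidea and Elovl3 against Ucp1, Ppargc1a against the summed level of 16 skeletal muscle genes, and Prdm16 against the summed level of 8 luminal genes. Cidea broadly rises with Ucp1, with scatter, above 1 TPM of Ucp1. In the 9 libraries under 1 TPM of Ucp1 it lies between 1.4 and 9.96 TPM, with 9.96 TPM in the Esr1 library that holds 0.02 TPM of Ucp1.

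Outside the members, the genes most like Ucp1 among 11346 protein-coding genes with a mean of at least 2 TPM were Acot11 (r = 0.893), which encodes an acyl-CoA thioesterase, Pank1 (r = 0.796), which makes coenzyme A, and Otop1 (r = 0.769), a proton channel. Acot11 and Pank1 also led for Cidea (0.868 and 0.819) and for Elovl3 (0.909 and 0.849). Acot11 itself ran from 0.83 to 24.0 TPM. Nearest to Kcnk3 were Slc36a2 (0.846), an amino acid transporter of fat, Agpat2 (0.837) and Gpd1 (0.825), which serve triglyceride synthesis. Nearest to Ppargc1a were Mapt (0.928), Pdk2 (0.916) and the muscle glycogen synthase Gys1 (0.915). Dio2 lay nearest to Acsl5 (0.765), Afg1l (0.750) and Letmd1 (0.739). Prdm16 lay nearest to Tcirg1 (0.770), Rpl29 (0.760) and Mrpl24 (0.759), and these 3 values were 0.465, 0.513 and 0.515 after rescaling. These are ranked descriptions over the same 48 whole-tissue libraries, whose depth is unknown and whose makeup differs.

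Other genes of brown fat differed in what they went with. Of all 20209 tested genes 0.252% had an r above 0.5 with Ucp1 and 5.82% had one with the muscle score. The lists below were chosen with earlier results of these data known, so their counts are descriptions and not a test. Of 15 further brown adipocyte genes, 5 had an r above 0.5 with Ucp1: Pank1, Slc27a2 (0.772), Otop1, Letmd1 (0.737) and Ntrk3 (0.714). A further 4 of the 15 had an r above 0.5 with the muscle score, among them Cox7a1 (0.904 with muscle, 0.384 with Ucp1), Cox8b (0.867 and 0.415) and Cpt1b (0.906 and 0.299), mitochondrial genes shared by brown fat and muscle. The remaining 6 had neither: Gk (0.829), Epsti1 (0.776) and Eva1a (0.517) had an r above 0.5 with the luminal score, Lhx8 (0.656) with the white adipocyte score, and S100b and Zic1 with none of these. Of 13 genes of fatty acid burning 6 had an r above 0.5 with Ucp1, led by Acadvl (0.663) and Hadhb (0.652). Of 12 transcription factors 2 did, Ppara (0.697) and Ppargc1b (0.529). Of 7 beige-selective genes, 12 adrenergic and cyclic AMP genes, 10 genes of Ucp1-independent heat cycles and 7 thyroid hormone genes none did. The brown lineage marker Zic1 ranged from 0 to 0.68 TPM, and Lhx8, another, from 0.77 to 9.2 TPM. Of the 7 beige-selective genes, Tmem26 (0.06 to 1.04 TPM), Tnfrsf9 (0 to 0.48 TPM), Tbx1 (0 to 0.70 TPM) and Hoxc9 (0.04 to 0.77 TPM) were near 0, while Ear2 (0.24 to 21.4 TPM), Cited1 (1.33 to 17.2 TPM) and Slc27a1 (23.2 to 180 TPM) were not.

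The comparison in which members passed the test set the 9 long-induced libraries of the Esr1 model (6, 12 or 18 months of induction) against the 9 of the CYP19A1 model. Ucp1 ran from 0.14 to 171 TPM in the Esr1 model with a median of 1.08 TPM, and from 4.22 to 191 TPM in the CYP19A1 model with a median of 44.4 TPM. By duration, the Esr1 libraries held 0.25, 0.31 and 0.14 TPM after 6 months, 0.38, 171 and 1.08 TPM after 12 months, and 11.9, 3.20 and 8.92 TPM after 18 months. The CYP19A1 libraries held 61.9, 84.6 and 4.22 TPM, then 44.4, 40.7 and 41.5 TPM, then 191, 15.1 and 89.8 TPM. Of the Esr1 libraries 8 of 9 lay at or under 11.9 TPM and of the CYP19A1 libraries 8 of 9 at or over 15.1 TPM, and the ranges overlap through the remaining library of each model. Ucp1 was lower in the Esr1 model by a log2 change of -3.36 (SE 0.87, 95% interval -5.12 to -1.61), a fold of 0.0973 on the TPM + 1 scale (limma, Benjamini-Hochberg adjusted p = 0.0162 over all genes).

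Kcnk3 also passed. It ran from 0.79 to 2.89 TPM (median 1.34 TPM) in the 9 Esr1 libraries and from 1.99 to 5.61 TPM (median 3.55 TPM) in the 9 CYP19A1 libraries. The log2 change was -0.87 (SE 0.22, 95% interval -1.31 to -0.44, limma adjusted p = 0.0112), a fold of 0.546 on the TPM + 1 scale and not a ratio of TPM. So 2 of 7 members were called, both lower in the Esr1 model, where 839 of all 20209 genes (4.15%) were called. The 7 members had a median change of -0.83, with 6 below 0, beside a median of -0.12 over all genes, which median-of-ratios totals moved by 0.11.

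Cidea had 12.4 ± 17.8 TPM in the Esr1 model and 27.4 ± 19.6 TPM in the CYP19A1 model (n = 9 each). Its log2 change of -1.51 did not pass (limma adjusted p = 0.141). Dio2 (-0.32, limma adjusted p = 0.276), Elovl3 (-0.83, 0.317) and Ppargc1a (-0.36, 0.356) did not pass either, nor did Prdm16 (0.26, 0.486), the member that lay higher in the Esr1 model.

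**Figure D4:**
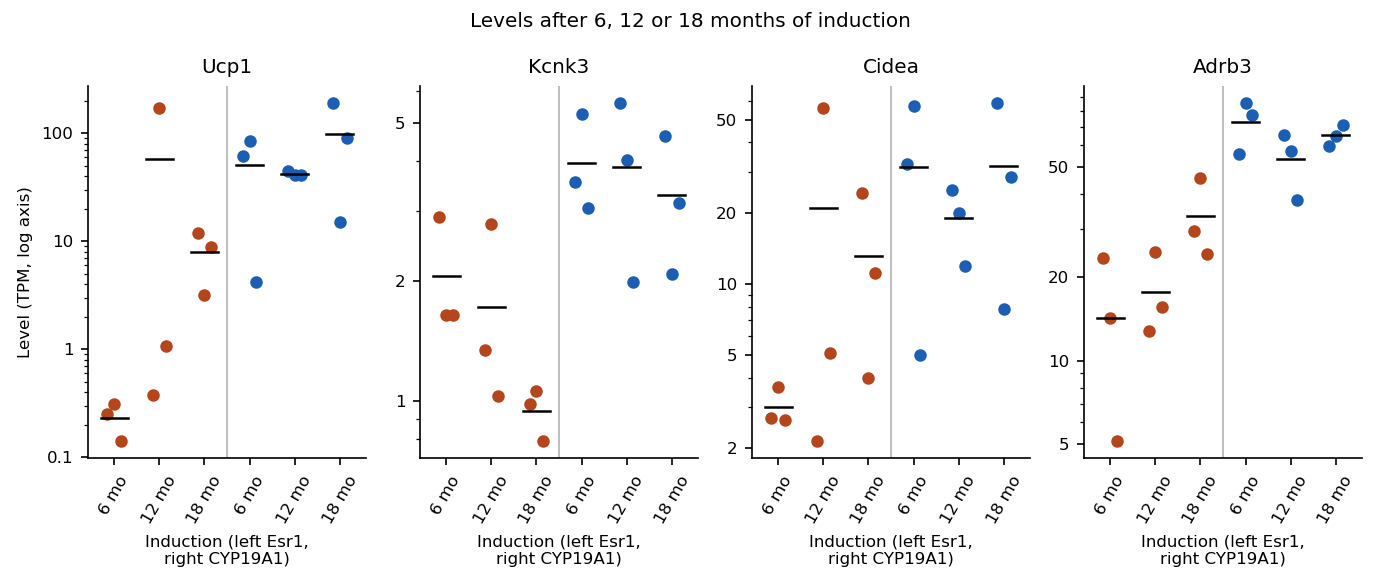
Levels of Ucp1, Kcnk3, Cidea and the receptor gene Adrb3 (TPM, log axis) after 6, 12 or 18 months (mo) of induction, Esr1 model on the left (red) and CYP19A1 model on the right (blue) of each panel; points are libraries and bars are means of 3. For Ucp1, 8 of 9 Esr1 libraries lie at or under 11.9 TPM, while 8 of 9 CYP19A1 libraries lie at or over 15.1 TPM.

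The Ucp1 call rested on narrow margins. Without the libraries rich in ribosomal RNA, 2 of which were long-induced Esr1 glands (33.4% and 50.3%), the change was -3.39 with a limma adjusted p of 0.0631, and without replicate 3 of the 12-month Esr1 group it was -3.04 with a limma adjusted p of 0.0507. Cidea passed (-1.92, limma adjusted p = 0.0422) when replicate 2 of that group, the library with 171 TPM of Ucp1, was left out, and Ucp1 was then -4.10. Kcnk3 stayed past the threshold in all 27 alternatives, with limma adjusted p from 0.0010 to 0.0385.

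Upstream of Ucp1, 1 of 12 adrenergic and cyclic AMP genes was called between the long-induced models. That gene, Adrb3, the beta-3 adrenergic receptor, ran from 5.11 to 45.9 TPM (median 23.4 TPM) in the Esr1 model and from 38.0 to 85.4 TPM (median 65.0 TPM) in the CYP19A1 model. Its log2 change was -1.67 (SE 0.29, limma adjusted p = 0.000131), and the change held in all 27 alternatives. All 12 genes of the list lay below 0, with a median of -0.25 beside -0.12 over all genes. From library to library Adrb3 had r = 0.298 with Ucp1, and -0.02 over deviations from group means. Ebf2, a transcription factor of brown and beige precursors, was the 1 of 12 thermogenic transcription factors called (4.55 ± 1.21 against 7.69 ± 1.44 TPM, log2 change -0.66, limma adjusted p = 0.0114), and 11 of 12 lay below 0. Gatm, which makes a precursor of creatine, was 1 of 10 genes of Ucp1-independent heat cycles called (-0.71, limma adjusted p = 0.0227). It lost its call, with adjusted p up to 0.0619, when any of 3 single libraries was left out: replicate 3 of the 6-month Esr1 group, replicate 3 of the 18-month Esr1 group, or replicate 2 of CYP19A1 glands after 6 months.

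Thrsp, a thyroid hormone-responsive lipogenic gene, was 1 of 5 tested thyroid hormone genes called (-1.21, limma adjusted p = 0.0431), and it lost the call in 18 of 27 alternatives. One beige-selective gene went the other way: Ear2 held 10.01 ± 6.21 TPM in the Esr1 model and 0.996 ± 0.968 TPM in the CYP19A1 model (log2 change 2.37, limma adjusted p = 6.18e-07), 1 of 3 tested genes of that list. Ear2 encodes an eosinophil-type ribonuclease and has close family copies, so reads may be split between them. Of 14 tested brown adipocyte genes 0 were called, with 11 below 0 and a median of -0.56. Of 13 genes of fatty acid burning 0 were called, with 11 below 0 and a median of -0.34.

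Markers of other cells were set beside these in the same comparison, where 4.15% of all genes were called and the median over all genes was -0.12. Of 12 white adipocyte genes 10 lay below 0 in the Esr1 model (median -0.44) and 1 was called, Adig (-0.67, limma adjusted p = 0.0451). Their summed level ranged from 4208 to 11761 TPM in the Esr1 and from 7083 to 15167 TPM in the CYP19A1 libraries. Of 16 muscle genes 15 lay below 0 (median -0.41) and 0 were called, with sums of 11053 to 37144 against 20241 to 43178 TPM. Of 8 luminal genes 7 lay above 0 (median 0.41) and 0 were called, with sums of 159 to 483 against 127 to 466 TPM. Of 8 milk protein genes 5 were called higher in the Esr1 model (median 2.60), with sums of 249 to 17651 against 152 to 2720 TPM. The part of these differences in the Ucp1 and Kcnk3 results was not tested.

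In uninduced glands Ucp1 had its higher median in the Esr1 model. It ran from 0.07 to 263 TPM (median 20.7 TPM) in 9 Esr1 libraries and from 0.43 to 48.9 TPM (median 7.57 TPM) in 9 CYP19A1 libraries. No member was called between the uninduced models, where 596 genes (2.95%) were. Elovl3 (0.97, limma adjusted p = 0.229) and Prdm16 (0.45, 0.171) had an unadjusted p under 0.05, with the Esr1 glands higher. Adrb3 was -0.78 (limma adjusted p = 0.137). Called in the lists were Acadl (0.79, limma adjusted p = 0.00871) and Fabp3 (1.84, 0.0191) of fatty acid burning, and Ear2 (1.24, 0.0128). Without the libraries rich in ribosomal RNA Acadl (limma adjusted p = 0.0567) and Ear2 (0.1098) lost their calls, as they did with the compared groups alone (0.205 and 0.105). Acadl also lost it with array quality weights (0.119). Fabp3 lost its call, with limma adjusted p up to 0.0693, without any of 4 single libraries: replicate 3 of the uninduced 12-month Esr1 group, replicate 2 of the 18-month one, replicate 3 of the 24-month one, or replicate 1 of the uninduced 18-month CYP19A1 group.

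Within each model, long-induced glands of 24 months were set against uninduced glands of the same age. In the Esr1 model 6 months of induction set Ucp1 at 0.25, 0.31 and 0.14 TPM against 51.8, 17.0 and 15.1 TPM uninduced. The groups did not overlap, with a log2 change of -4.33 (SE 1.5, 95% interval -7.37 to -1.29, unadjusted p = 0.00641 and adjusted p = 1 by limma). Cidea (19.6 ± 18.3 against 2.99 ± 0.563 TPM) and Elovl3 (0.96 ± 0.11 against 0.06 ± 0.0361 TPM) did not overlap between those groups either, with unadjusted p of 0.0528 and 0.247 by limma. Of all genes 0.846% lay lower without overlap, 0% were called in this comparison, and 1.16% had an unadjusted p under 0.05. In the CYP19A1 model 6 months of induction (0% of genes called) set 50.2 ± 41.4 TPM of Ucp1 against 5.36 ± 1.92 TPM uninduced. After 12 months of induction the CYP19A1 glands (0.0198% of genes called) held 42.2 ± 1.97 TPM of Ucp1, with no overlap with the uninduced 7.57, 4.22 and 4.28 TPM, and the Esr1 glands (0.00495%) held 57.6 ± 98.4 against 28.0 ± 20.7 TPM. Elovl3 did not overlap after 12 months in the CYP19A1 model either (1.64 ± 0.912 against 0.293 ± 0.182 TPM), and 6.78% of all genes lay higher without overlap there. By limma the unadjusted p was 0.0696 for Ucp1 and 0.197 for Elovl3. No member was called in any of these 4 comparisons.

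The 6-month response of Ucp1 differed between the models by -6.63 (95% interval -10.93 to -2.33, limma adjusted p = 1) and the 12-month response by -4.46 (-8.75 to -0.16, adjusted p = 1). Cidea differed by -3.52 in the 6-month response. Neither comparison called a member or any other gene (0% in both), with 1.25% and 1.01% of genes at an unadjusted p under 0.05. These comparisons share the 24-month uninduced groups, and they were added after the data were seen.

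One week of induction was set against no induction at 12 and at 18 months. In the Esr1 model at 12 months (0.0099% of genes called) Ucp1 held 98.1, 0.02 and 6.87 TPM induced and 210, 20.7 and 263 TPM uninduced (-3.52, unadjusted p = 0.0243 and adjusted p = 0.754 by limma), and Elovl3 changed by -1.87 with the same adjusted p. At 18 months (0% of genes called) Ucp1 held 3.33, 84.99 and 59.2 TPM induced and 0.39, 35.1 and 0.07 TPM uninduced, and Elovl3 changed by 1.61 (limma adjusted p = 1). In the CYP19A1 model Ucp1 held 4.27 ± 5.02 against 33.5 ± 20.8 TPM at 12 months (0% of genes called), without overlap, and 21.9 ± 22.7 against 7.13 ± 7.68 TPM at 18 months (0%), with overlap. The 12-month gap was narrow, with 9.86 TPM in the highest induced and 9.88 TPM in the lowest uninduced library. Cidea (5.19 ± 2.35 against 21.4 ± 13.9 TPM) and Elovl3 (0.0833 ± 0.0306 against 0.99 ± 0.817 TPM) did not overlap there either, and 1.36% of all genes lay lower without overlap. By limma the unadjusted p of these 3 members ran from 0.0544 to 0.299. All 3 of those induced libraries were rich in ribosomal RNA, as were 2 of the 3 uninduced ones (67.2%, the library with 9.88 TPM, and 22.2%). Kcnk3 lay higher without overlap at 18 months in the Esr1 model (2.79 ± 0.811 induced against 1.25 ± 0.268 TPM, unadjusted p = 0.0573 by limma), as 4.26% of all genes did. No member was called in the 4 comparisons.

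The sign of the 1-week change in Ucp1 was thus negative at 12 and positive at 18 months in both models. The difference of the 12- from the 18-month response was -6.43 in the Esr1 model (95% interval -10.72 to -2.13) and -4.59 in the CYP19A1 model (-8.89 to -0.29). By limma the adjusted p was 1 and 0.635, no member was called, and 0% of genes were called in either, with 1.29% and 5.33% at an unadjusted p under 0.05. Cidea (-3.32), Kcnk3 (-1.25) and Elovl3 (-3.48) in the Esr1 model and Prdm16 (-0.93) in the CYP19A1 model also had an unadjusted p under 0.05. The models did not differ detectably in their 1-week response, with 0 members and 0% of genes called.

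**Figure D5:**
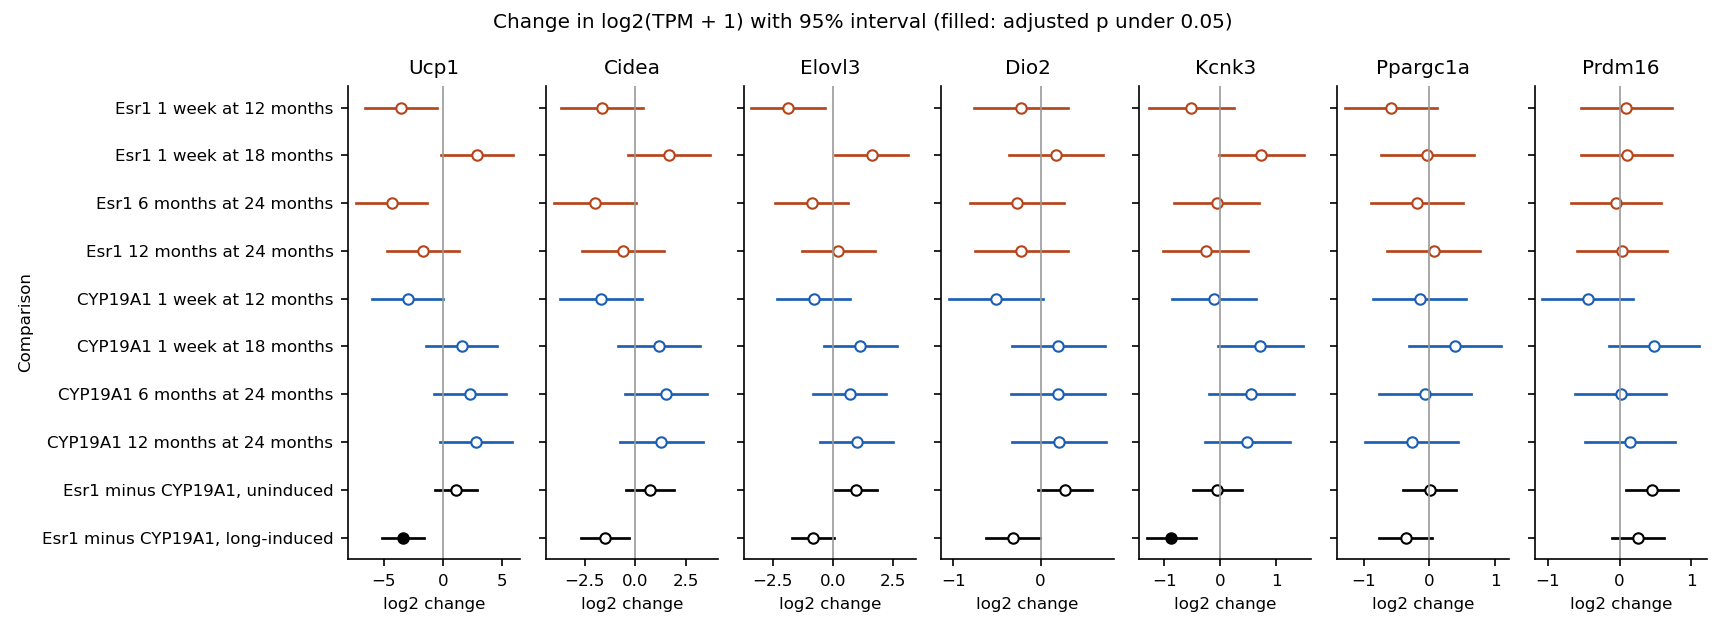
Change in log2(TPM + 1) of each gene with its 95% interval for 8 induction comparisons (red Esr1, blue CYP19A1) and for the Esr1 minus CYP19A1 difference in uninduced and long-induced glands (black); filled points passed at an adjusted p under 0.05. Ucp1 (-3.36) and Kcnk3 (-0.87) in long-induced glands are the filled points, and intervals for Ucp1 span several log2 units.

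With age, uninduced Esr1 glands held less of the thermogenic transcripts at 18 than at 12 months in value, without passing. All 7 members lay below 0, with a median of -1.46 beside 0.01 over all genes. Ucp1 changed by -4.82 (95% interval -7.86 to -1.78), Cidea by -3.18, Elovl3 by -2.53 and Kcnk3 by -1.46 (limma adjusted p from 0.627 to 0.821), and Kcnk3 and Elovl3 did not overlap between the ages, where 4.17% of all genes lay lower without overlap. No gene was called in that comparison (0%), and 2.76% had an unadjusted p under 0.05. Between 24 and 12 months (0.574% of genes called) Kcnk3 changed by -0.98 and Elovl3 by -2.0 (limma adjusted p = 0.390 and 0.375), and no member was called. At 18 months all 12 white adipocyte genes lay below 0 too (median -0.91, 0 called), with summed levels of 4213 to 7626 TPM against 7939 to 10422 TPM at 12 months. Adrb3 held 19.6 to 34.1 against 46.4 to 69.8 TPM, and the 12 adrenergic and cyclic AMP genes summed to 470 to 498 against 567 to 667 TPM. The 16 muscle genes all lay above 0 (median 0.54, 0 called). The part of these differences in the members' values was not tested. Both age comparisons share the 12-month group, whose Ucp1 was the highest of all.

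In uninduced CYP19A1 glands the Ucp1 libraries held 9.88, 48.9 and 41.8 TPM at 12 months, 15.5, 5.45 and 0.43 TPM at 18 months, and 7.57, 4.22 and 4.28 TPM at 24 months. The 24-month libraries lay below all 12-month ones, in a comparison where 9.69% of all genes did not overlap in either direction, and no member was called (18 against 12 months 0.0099% of genes, 24 against 12 months 4.24%). Ppargc1a went the other way, from 1.44, 3.93 and 1.71 TPM at 12 months to 4.86, 4.38 and 7.61 TPM at 24 months without overlap (1.02, SE 0.35, limma adjusted p = 0.0978). Its change was 0.74 with median-of-ratios totals. Without the libraries rich in ribosomal RNA the change was 0.19, with replicate 2 (3.93 TPM) the only uninduced 12-month library left. Ppargc1a passed (1.33, limma adjusted p = 0.0180) without that replicate. Both 12-month libraries left were then rich in ribosomal RNA (67.2% and 22.2%).

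All 16 muscle genes were called higher in that comparison (list median 4.02), for example Acta1 (4.17, limma adjusted p = 0.0103). With median-of-ratios totals the median of all genes moved by -0.22 and 65 genes in place of 857 were called. Ckmt2, the mitochondrial creatine kinase of muscle (3.87, limma adjusted p = 0.00818), was called with the TPM as deposited. It lost the call with median-of-ratios totals (limma adjusted p = 0.0948), and it had r = 0.986 with the muscle score. The part of muscle RNA in the Ppargc1a value was not tested.

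The last comparisons set 30-month glands induced for 18 months against 24-month glands induced for 12 months. Age and length of induction change together there and cannot be told apart. Ucp1 held 8.01 ± 4.42 against 57.6 ± 98.4 TPM in the Esr1 model (0.139% of genes called) and 98.5 ± 88.1 against 42.2 ± 1.97 TPM in the CYP19A1 model (0% called, 1.64% at an unadjusted p under 0.05). On the log2(TPM + 1) scale the Ucp1 change was 0.04 in the Esr1 model, where 1 library carried the 24-month mean, and 0.60 in the CYP19A1 model. No member was called in either by limma, and none had an unadjusted p under 0.05. Ppargc1a lay higher without overlap in the CYP19A1 model (6.15 ± 0.904 against 4.44 ± 1.05 TPM). The gap was narrow, from 5.10 to 5.53 TPM, and the share of all genes without overlap was not counted there. The models did not differ detectably in the change of any member from 12 to 24 months uninduced, where 0.0396% of genes were called. With TPM as deposited and all libraries kept and equally weighted, members passed in 1 of the 22 comparisons, that between the long-induced models.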

How the data were processed

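RNA from thoracic (second) mammary glands was sequenced as rRNA-depleted, stranded total RNA, single-end, per the labels' protocols. The submitters' processing notes name the build mm10 and, without roles, RSEM 1.3.1, STAR 2.7.9a, FastQC 0.11.9 and Trim Galore 0.6.5. The authors deposited TPM, a share of transcripts scaled to a fixed total, for 55487 genes in 48 libraries, with no counts, so no count model was used. Values were taken as log2(TPM + 1). The 20209 genes that reached 1 TPM in 3 or more libraries were tested, and limma 3.58.1 (R 4.3.3, trend) was fitted with 1 mean per group over all 48 libraries. P-values were Benjamini-Hochberg adjusted over all tested genes within a comparison and called under 0.05. There were 20 comparisons, and 2 were added after the data were seen. Groups and replicates came from the titles and characteristics.

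Correlations used 100000 permutations in Python 3.11.15 with scipy 1.17.1, over 49 relations adjusted together. Positions come from GENCODE M21, where all 7 members matched, and promoter windows from RefSeq, trimmed to 250 bases. A member's change is given singly where its unadjusted p was under 0.05, or where a group or library result turned on it; from each list up to 4 called genes are named, and for each member the 3 genes with the highest r. The members, lists and tests were chosen with earlier results of these data known. The fit was tested on simulated data. Alternatives were another pseudocount (0.1), no filter and a stricter one, 2 rescalings of the TPM (median-of-ratios and protein-coding totals), array quality weights, a replicate block, the compared groups alone, and leaving out libraries. Replicate numbers did not pair the libraries: in 1 of 14 comparisons every same-numbered pair correlated over 0.1. One further gene of the lists is not reported here.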

Additional observations from a re-analysis of the deposited data

How the results depend on the processing

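Over 58 results, 36 of them changes with a direction and 22 counts of members called, 516 values under other settings and 642 without a single replicate held 0 reversed directions. A call was lost in 44 of them and gained in 16, and a count of members moved in 11. Changes entered only with an unadjusted p under 0.05 or a call when all libraries were kept and equally weighted. The other settings reuse the same libraries, and counts have no direction. The 0 reversals are therefore a description and not a test of the directions. No member passed between groups of 1 model with all libraries and equal weights. Array quality weights were the exception: 6 members were called for 1 week of Esr1 induction at 12 months, 2 for that at 18 months, 7 for Esr1 age 18 against 12 months, 2 for Esr1 age 24 against 12 months and 6 for the Esr1 1-week response at 12 against 18 months. Those weights ran from 2.85e-05 to 80.7, and their estimation stopped before converging. With them up to 12452 of the 20209 tested genes were called in a comparison. These counts are therefore not read as a result about the members. Between the long-induced models 2 members were called, 1 without the libraries rich in ribosomal RNA and 1 to 3 without a single replicate. Without a single replicate the count of members called ran from 0 to 1 for 1 week of CYP19A1 induction at 12 months and for its difference from 18 months (each 1 without replicate 1 of the uninduced 12-month CYP19A1 group), for CYP19A1 age 24 against 12 months (1 without replicate 2 of that group) and for the uninduced models (1, Prdm16, without replicate 3 of the uninduced 18-month Esr1 group).

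A replicate block left every count of members called as it was, with Ucp1 at -3.36 and a limma adjusted p of 0.0175 between the long-induced models. The correlation of same-numbered libraries ran from -0.44 to 0.36. Over all genes, 839 were called between the long-induced models, 1989 with median-of-ratios totals, 1562 with protein-coding totals, 1595 with those groups alone and 6833 with array weights. For the uninduced models the 596 became 3379, 4012, 211 and 2129 in that order, and 2569 without the libraries rich in ribosomal RNA. For CYP19A1 age 24 against 12 months the 857 became 65, 76, 3 and 2. Without those libraries only replicate 2 was left at 12 months, so no count is given. For Esr1 age 24 against 12 months the 116 became 363, 250, 24 and 1010, 266 without those libraries, 316 without a filter and 76 with a stricter one. For induced Esr1 glands of 30 against 24 months the 28 became 0 with those groups alone and 5866 with array weights. The count there was 85 without those libraries, 46 without a filter and 16 with a stricter one. Leaving out the libraries rich in ribosomal RNA gave no value where all 3 libraries of a group were such, and a stricter filter left Dio2 untested. Depth is unknown, which limits what can be said of Dio2 and Elovl3 under 1 TPM.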
